A study of Mus musculus with 26 samples.

Results

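The gene Runx3 was followed on all 26 arrays of a mouse osteosarcoma series. It is 1 of 12887 genes that passed the filter on low intensities. It was selected on measured values, its higher log2 intensity than in osteoblasts in all 3 tumour groups, so its differences from osteoblasts are given as a description, with no test. Runx3 encodes a RUNX transcription factor, which binds DNA through its Runt domain after pairing with the partner protein Cbfb. The family is best known in bone through the master regulator of osteoblasts, in blood through Runx1, and through Runx3 itself in cytotoxic T cells, NK cells, proprioceptive neurons and cartilage. RUNX factors activate or repress genes depending on co-regulators such as the TLE co-repressors.

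Osteosarcoma is a malignant tumour of the osteoblast lineage. The control group consisted of 3 cultures of wild-type primary osteoblasts that were differentiated in vitro. The tumour groups were 15 primary osteosarcomas from a mouse model, 4 osteosarcoma cell lines and 4 secondary tumours. Of the secondary tumours, numbers 29, 64 and 94 are labelled as transplants, and number 66 as tumour tissue from a cell line, which its title calls a cell line. Titles of the secondary tumours carry the tag OPflR, which the labels do not explain. The genotype of the tumours and lines, ages, the driver of the mouse model, the transplant hosts and the clonality of the lines are not given in the labels, nor are any treatments. Whether the cultures or lines came from separate animals is not stated, so p-values measure the spread between these samples, which may partly be technical.

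Array medians were 44.4 to 58.8 in intensity units, with lines (44.4 to 48.2) below primary tumours (50.4 to 58.8). Ratios between bacterial control transcripts parted the arrays into 3 sets, which the labels do not name as batches. Set A held the 3 osteoblast cultures alone, set B held 7 primary and the 4 secondary tumours, and set C held 8 primary tumours and the 4 lines. Array set and group therefore cannot be told apart in any comparison with osteoblasts. Of the osteoblast markers, 9 of 13 were measured. The matrix genes were bright on every array, with Col1a1 between 9780 and 17600, and they make up most of the summed intensity of 31700 to 68000. The other markers went in both directions. Median intensities of Alpl were 986 in osteoblasts, 5420 in primary tumours, 5230 in secondary tumours and 916 in lines. Those of Sp7 were 352, 1410, 1500 and 234 in the same order, and those of Dlx5 were 218, 461, 687 and 229. Phex, an enzyme of mineralising cells, had a median intensity of 257 in osteoblasts but 14.1 in primary tumours, 15.7 in lines and 11.2 in secondary tumours. It still reached 1310 in a primary tumour. Dmp1 lay at 11.9 to 26.6 in lines, and Ibsp reached as low as 2.62 in a line and 26.6 in a primary tumour.

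The array carried 2 probe sets annotated to Runx3, and both passed the filter. Probe set 1440275_at is annotated to an expressed sequence tag and is called the EST probe set, and 1421467_at is annotated to the RefSeq transcript and is called the RefSeq probe set. Both lay above the floor set for low values on all 26 arrays. They differed in how far they varied, by 4.74 on the log2 scale for the EST probe set and 1.01 for the RefSeq probe set. The RefSeq table of GRCm38.p6 lists 2 transcription starts for Runx3, 31900 bases apart on the plus strand of chromosome 4. RUNX factors bind the motif ACCACA, and 250 bases before each start are shown because family members are known to act on RUNX promoters. Capitals mark each ACCACA or its reverse complement TGTGGT.

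Upstream start, chr4:135120395-135120644, plus strand: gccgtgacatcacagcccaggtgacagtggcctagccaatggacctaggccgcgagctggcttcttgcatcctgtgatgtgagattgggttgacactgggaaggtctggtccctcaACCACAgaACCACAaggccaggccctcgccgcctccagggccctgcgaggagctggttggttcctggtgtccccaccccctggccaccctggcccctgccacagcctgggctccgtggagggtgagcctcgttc

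Downstream start, chr4:135152295-135152544, plus strand: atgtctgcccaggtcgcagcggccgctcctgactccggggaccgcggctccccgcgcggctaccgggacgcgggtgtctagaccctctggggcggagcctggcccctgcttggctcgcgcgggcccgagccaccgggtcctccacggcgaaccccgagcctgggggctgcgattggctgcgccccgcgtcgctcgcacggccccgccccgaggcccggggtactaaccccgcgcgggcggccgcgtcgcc

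The window of the upstream start held 2 matches, which begin 134 and 126 bases before the start and do not overlap. The window of the downstream start held 0 matches. Of 32851 promoter windows of the same length, 14.0% held at least 1 match on either strand and 1.27% held at least 2. GC content was 65.2% in the upstream window and 78.8% in the downstream window. These matches are letters in a sequence, not measured binding, and neither probe set was assigned to a start here.

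Runx3 was low in osteoblasts and high in tumours by the EST probe set, the one with the higher mean. In osteoblast cultures 1, 2 and 3 its intensity was 59.6, 63.3 and 51.6, close to the median of all values on all arrays, 52.6. In the primary tumours the lowest intensity was 373 in tumour 330, the median was 634 in tumour 29, and the highest was 1374 in tumour 119. Every primary tumour lay several-fold above every osteoblast culture, so the groups did not overlap.

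The secondary tumours lay within the range of the primary ones. Their intensities were 638 in tumour 29, 585 in tumour 64, 541 in tumour 66 and 428 in tumour 94. Tumour 66, the one derived from a cell line, lay between the transplants 64 and 94.

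The cell lines were intermediate and spread widely. Their intensities were 518 in line 176, 168 in line 179, 313 in line 182 and 190.2 in line 213. Line 176 alone reached the range of the primary tumours, and the lines also did not overlap with osteoblasts.

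On the log2 scale, the means of the EST probe set were 5.86 ± 0.15 (SD, n = 3) in osteoblasts, 8.07 ± 0.74 (n = 4) in lines, 9.08 ± 0.25 (n = 4) in secondary tumours and 9.40 ± 0.47 (n = 15) in primary tumours. Against osteoblasts this was 3.54 higher in primary tumours (11.6-fold), 3.23 higher in secondary tumours (9.35-fold) and 2.21 higher in lines (4.63-fold). Within the primary tumours, those of array set B averaged 9.59 ± 0.42 (n = 7) and those of set C 9.23 ± 0.48 (n = 8), which is 3.73 and 3.37 above the osteoblast mean. A gene with every array above every osteoblast array was not rare: such genes made up 8.95% of those tested for primary tumours, 13.2% for lines and 24.1% for secondary tumours, and 3.02% for all 23 tumour and line arrays together. Only 61 genes, 0.473%, were called higher in all 3 groups. Runx3's smallest difference of these, 2.21, was the 4th largest among the smallest differences of those 61, whose median was 1.33. Runx3 was chosen for these same differences, so its place among the 61 describes that choice and is not evidence. In whole tissue, a change in the share of cells that hold a transcript and a change in its amount per cell cannot be told apart.

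**Figure D1:**
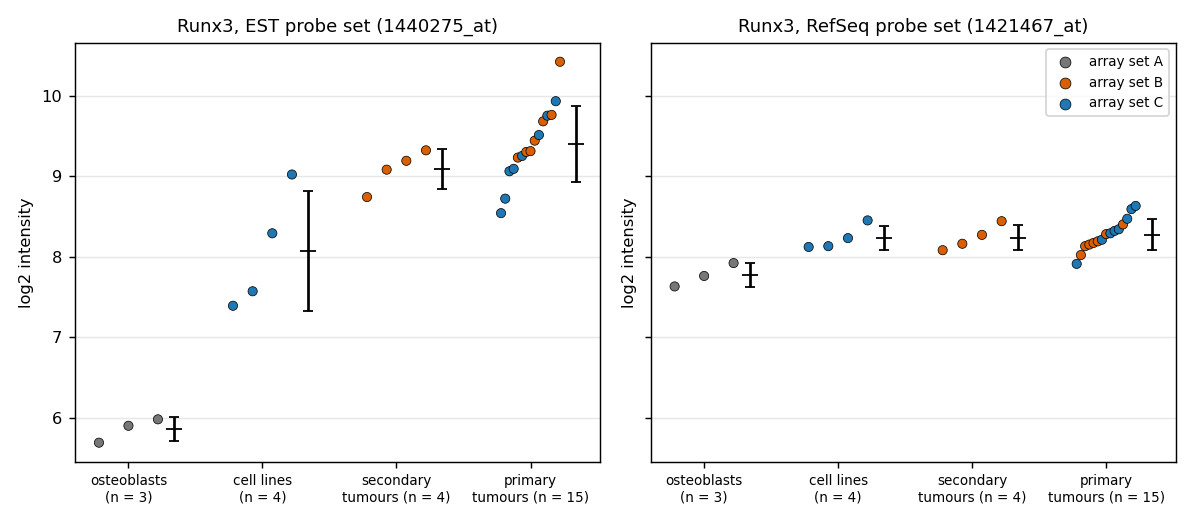
Log2 intensity of the 2 Runx3 probe sets by group: each point is 1 array, coloured by array set, sorted by value within a group, and bars give mean ± SD. By the EST probe set the 3 osteoblast cultures sit between 5.69 and 5.98 and all 23 tumour and line arrays sit at or above 7.39, while by the RefSeq probe set all 26 arrays sit between 7.63 and 8.63.

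The RefSeq probe set gave the same direction at a much smaller size. Its intensity was 243, 217 and 198 in osteoblast cultures 1, 2 and 3. In primary tumours it ran from 241 in tumour 353 over a median of 310.2 in tumour 94 to 397 in tumour 176. In lines 176, 179, 182 and 213 it was 349, 278, 300.1 and 279, and in secondary tumours 29, 64, 66 and 94 it was 347, 285, 269.9 and 308. All lines and secondary tumours and 14 of 15 primary tumours lay above the highest osteoblast culture. Such full separation was found in 13.2% of all genes for lines and in 24.1% for secondary tumours.

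The log2 means of the RefSeq probe set were 7.77 ± 0.15 (SD, n = 3) in osteoblasts, 8.27 ± 0.20 (n = 15) in primary tumours, 8.23 ± 0.15 (n = 4) in lines and 8.23 ± 0.16 (n = 4) in secondary tumours. It was 0.50 above osteoblasts in primary tumours (1.41-fold) and 0.46 above them in lines and in secondary tumours. Array by array the probe sets ran together over all 26 arrays (Pearson r = 0.72), which holds the step from osteoblasts, and less so over the 15 primary tumours (r = 0.33), both given as a description. The size of the Runx3 difference therefore depended on the probe set: 11.6-fold by one and 1.41-fold by the other in primary tumours.

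The first comparison among tumours asked whether cells grown as lines keep the Runx3 level of primary osteosarcomas. Runx3 was lower in lines than in primary tumours by the EST probe set, with 13 of 15 primary tumours above the highest line. The log2 difference was -1.33 (SE 0.260; limma, Benjamini-Hochberg adjusted p = 0.000334), which is 2.52-fold lower. In this comparison 11.7% of genes were called in either direction, 4.72% higher and 7.03% lower, at an adjusted p below 0.05 and at least 2-fold. The Gapdh 5′ to 3′ ratio, a sign of RNA quality, did not overlap between these groups either, at 1.04 to 1.08 in lines and 0.656 to 1.03 in primary tumours; its part in the difference was not tested. Lines lie in array set C only; against the 8 primary tumours of that set the difference was -1.16 (SE 0.322; limma adjusted p = 0.0204). The RefSeq probe set did not show it: in a fit over all kept probe sets its difference was -0.04 (SE 0.116; limma adjusted p = 0.794).

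Runx3 in lines was also below secondary tumours by the EST probe set, with 3 of 4 secondary tumours above the highest line. The log2 difference was -1.01 (SE 0.326; limma adjusted p = 0.021), just past 2-fold, in a comparison that called 13.2% of genes, 4.77% higher and 8.4% lower. The call was lost without line 179 (-0.79, limma adjusted p = 0.0893), line 213 (-0.85, 0.0761), secondary tumour 29 (-0.94, 0.0541) or secondary tumour 64 (-0.98, where the 2-fold limit was missed). It was also lost with the array set as a term (-0.65, limma adjusted p = 0.293), and the RefSeq probe set gave -0.005 (limma adjusted p = 0.984).

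Between secondary and primary tumours no difference in Runx3 was called. By the EST probe set it was -0.32 (SE 0.260; limma adjusted p = 0.691), with 7 of 15 primary tumours above the highest secondary tumour and all 4 secondary tumours above the lowest primary one. By the RefSeq probe set it was -0.04 (limma adjusted p = 0.928). Only 1 gene of 12887, 0.00776%, was called in this comparison. A p that misses the threshold does not show that the levels are equal.

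**Figure D2:**
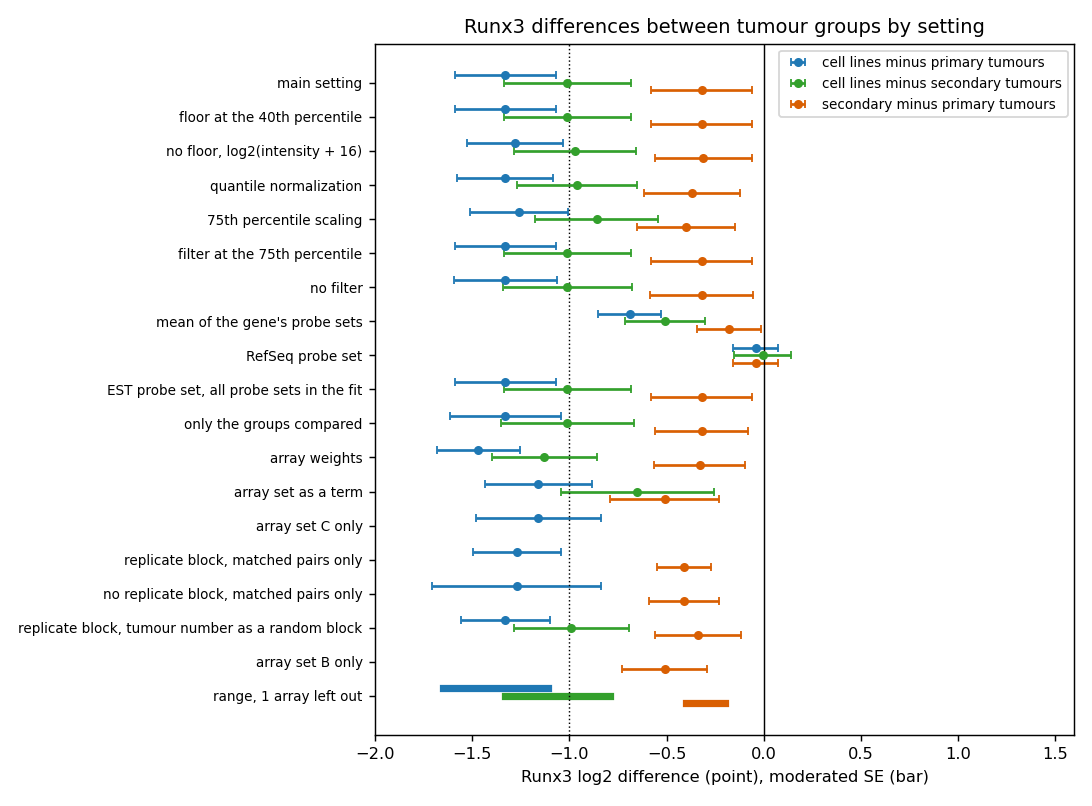
Runx3 log2 differences between tumour groups (x axis) under each processing setting (rows): points are differences with moderated SE, thick bars the range when 1 array was left out, the solid line 0 and the dotted line 2-fold lower. The lines-minus-primary difference runs from -1.65 to -1.11 when 1 array is left out and lies at -0.04 by the RefSeq probe set.

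Tumours that share a number with a transplant or line were also compared number by number. For the secondary tumours, the EST probe set differed from the same-numbered primary tumour by 0.01 in number 29, -0.57 in 64, -0.60 in 66 and -0.49 in 94. The level was lower in 3 of 4 pairs and level in the other, with a mean of -0.41 ± 0.29 (SD, n = 4; exact two-sided sign-flip p = 0.25, where 0.125 is the smallest possible). By the RefSeq probe set the mean was 0.08 ± 0.16 (n = 4; exact sign-flip p = 0.5).

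All 3 lines with a same-numbered primary tumour were lower by the EST probe set. Across genes the lines did not deviate together with these tumours, so they are known to share only a number. The differences were -0.91 in number 176, -1.67 in 179 and -1.22 in 182. Their mean was -1.27 ± 0.38 (SD, n = 3; exact two-sided sign-flip p = 0.25, the smallest that 3 pairs allow). Line 176 was the highest line and tumour 176 the highest of these 3 primary tumours, at 976 against 534.5 for tumour 179 and 727 for tumour 182. By the RefSeq probe set all 3 pairs were lower too, by a mean of -0.26 ± 0.19 (n = 3; exact sign-flip p = 0.25).

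**Figure D3:**
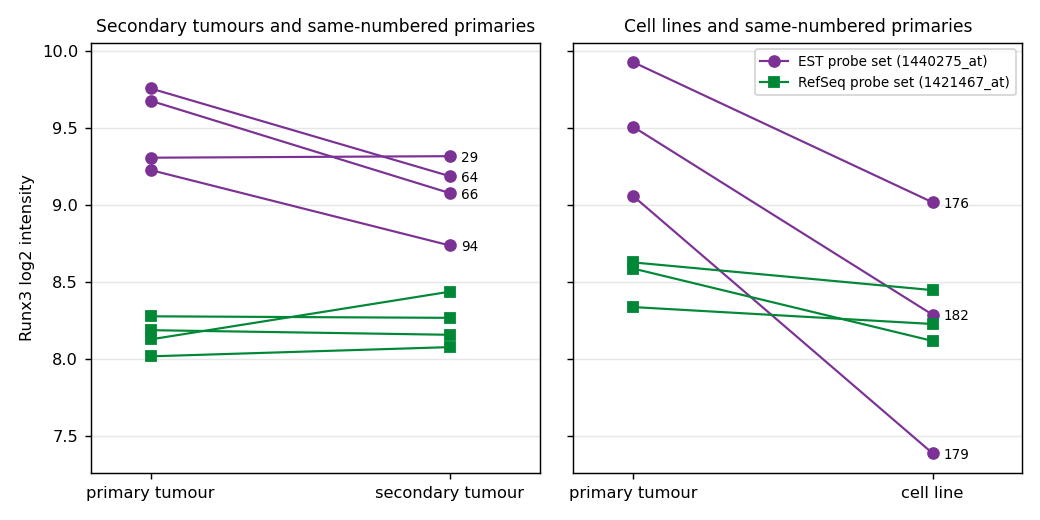
Runx3 log2 intensity in primary tumours (left of each panel) and in the secondary tumour or line of the same number (right), with 1 line per pair and probe set; numbers mark the pairs at the EST probe set. In 3 of 4 secondary pairs and 3 of 3 line pairs, the EST probe set is lower on the right.

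Runx1, the family member that governs blood stem cells, ran opposite to Runx3 against osteoblasts. Its log2 intensity was 10.12 ± 0.17 (SD, n = 3) in osteoblasts and 7.52 ± 0.82 (n = 15) in primary tumours, ranging from 6.48 to 9.17, so no primary tumour reached an osteoblast culture. Over all genes, every array lay below every osteoblast culture in 17.3% for primary tumours, 27.9% for lines and 28.3% for secondary tumours. In secondary tumours 29, 64, 66 and 94 it was 7.48, 8.14, 6.50 and 5.83. Runx1 was called lower, by -2.59 in primary tumours (SE 0.673; limma adjusted p = 0.00315) and by -3.13 in secondary tumours (SE 0.813; limma adjusted p = 0.00427). Of its 6 probe sets 5 were kept, and 4 of these 5 were called lower in each of those comparisons. In these comparisons 11.9% and 10.8% of genes were called lower.

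In the lines Runx1 was 4.22 in line 176, 8.72 in 179, 8.58 in 182 and 8.97 in 213. Line 176, which had the highest Runx3 of the lines, thus had by far the lowest Runx1. The lines differed from osteoblasts by -2.50 (limma adjusted p = 0.0379), where 6.64% of genes were called lower. This call was lost without line 176 (-1.36, adjusted p = 0.146) and without osteoblast culture 1, 2 or 3 (-2.40, -2.56 and -2.53, adjusted p = 0.119, 0.0947 and 0.0906). It was lost too with quantile normalization, with no filter and with only the groups compared (adjusted p = 0.0786, 0.0576 and 0.14). Lines and primary tumours differed by 0.10 in Runx1 (limma adjusted p = 0.913), and without line 176 by 1.23 (adjusted p = 0.0419), higher in lines. Lines and secondary tumours differed by 0.63 (limma adjusted p = 0.548), and without line 176 by 1.77 (adjusted p = 0.0202).

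Cbfb, the partner that all RUNX factors share, had no called difference between groups. Its log2 mean was 10.46 ± 0.05 (n = 3) in osteoblasts, 10.57 ± 0.46 (n = 15) in primary tumours, 10.48 ± 0.13 (n = 4) in lines and 10.81 ± 0.44 (n = 4) in secondary tumours. Its 6 differences ran from -0.33 to 0.35. Myc, a growth regulator described as a RUNX3 target in tumours, averaged 7.75 ± 0.11 (n = 3) in osteoblasts, 7.85 ± 0.34 (n = 15) in primary tumours, 8.18 ± 0.35 (n = 4) in lines and 7.90 ± 0.43 (n = 4) in secondary tumours. Its differences from osteoblasts of 0.10, 0.42 and 0.15 in primary tumours, lines and secondary tumours were not called (limma adjusted p = 0.725, 0.292 and 0.69), nor was that of 0.32 between lines and primary tumours (limma adjusted p = 0.191).

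**Figure D4:**
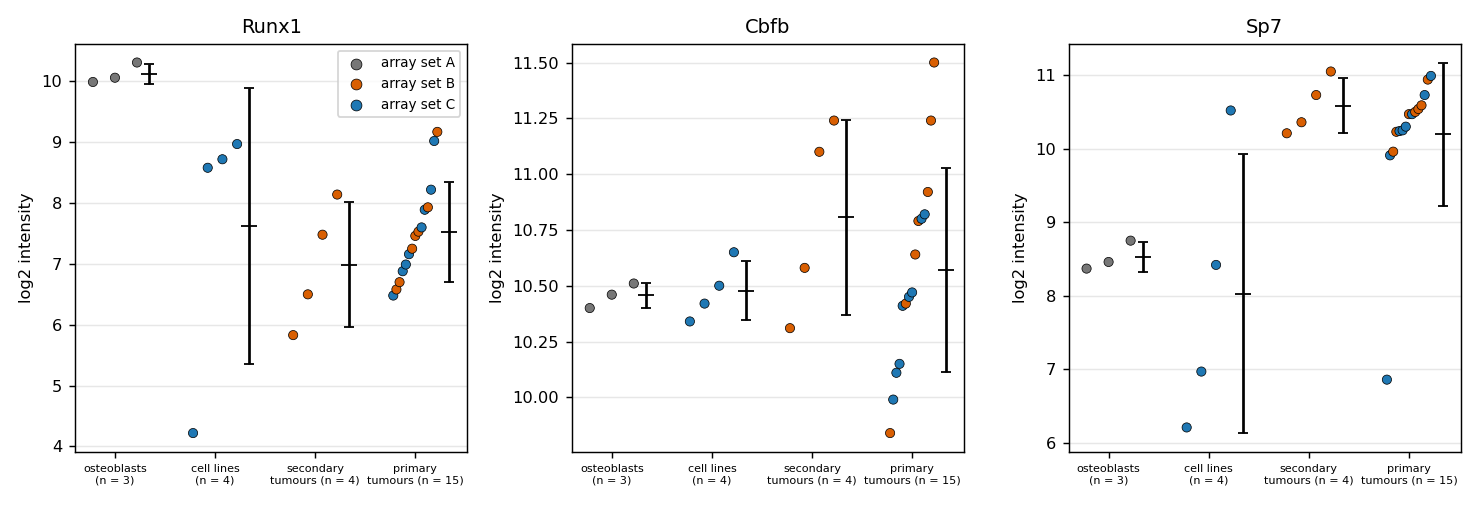
Log2 intensity of Runx1, of the shared partner Cbfb and of the osteoblast factor Sp7 by group: each point is 1 array, coloured by array set, and bars give mean ± SD; the y axes differ. Runx1 of osteoblasts lies at 9.99 to 10.31, above every tumour and line array, and line 176 lies at 4.22.

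Of the co-regulators through which RUNX factors act, 23 of 25 were measured, and 1 was called higher and 2 lower in lines than in primary tumours, where 4.72% and 7.03% of all genes were. Against osteoblasts 2 were called higher and 2 lower in primary and in secondary tumours each, beside 18.5% of all genes called in either direction in each. In lines 0 were called, beside 8.22% of all genes, and 3 had an unadjusted limma p below 0.05. Between lines and secondary tumours 1 was called higher and 4 lower, beside 4.77% and 8.4% of all genes. Tle4, a TLE co-repressor, was 7.61 ± 1.19 (n = 15) in primary tumours, 8.32 ± 0.59 (n = 4) in secondary tumours, 4.92 ± 0.85 (n = 4) in lines and 5.80 ± 0.03 (n = 3) in osteoblasts. It was lower in lines than in primary tumours by 2.68 log2 units (-2.68, SE 0.542; limma adjusted p = 0.000474). Crebbp, an acetyltransferase, differed by -1.09 (SE 0.211; limma adjusted p = 0.000297), which was -0.70 within array set C and thus under 2-fold there. Runx1t1, a co-repressor of the ETO family, was 1.14 higher (limma adjusted p = 0.0443). That call was lost in 17 of 40 alternatives, among them without line 176, 179 or 213, without any 1 osteoblast culture, and without primary tumour 12, 179, 183, 188 or 353.

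Genes on which Runx3 is known to act in T and NK cells were mostly too dim to test. Only 8 of 19 passed the filter. Of these, 0 were called higher and 1 lower in lines than in primary tumours, beside 4.72% and 7.03% of all genes. The 1 was Prdm1, which encodes the repressor Blimp-1. Its log2 intensity was 4.51 ± 0.66 (SD, n = 3) in osteoblasts, 4.81 ± 0.32 (n = 4) in lines, 6.95 ± 0.84 (n = 15) in primary tumours and 7.39 ± 0.65 (n = 4) in secondary tumours. The lowest primary tumour, at 5.72, lay above the highest line and osteoblast culture, at 5.04 and 5.07. Every line lay below every primary tumour in 5.25% of all genes, and below every secondary tumour in 19.8%. Every primary tumour lay above every osteoblast culture in 8.95%. Prdm1 differed by -2.14 between lines and primary tumours (SE 0.400; limma adjusted p = 0.000223) and by 2.44 between primary tumours and osteoblasts (SE 0.450; limma adjusted p = 0.000121).

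Among 15 measured of 16 growth, death and vessel genes described as RUNX3 targets in tumours, 2 were called higher and 1 lower in lines than in primary tumours, beside 4.72% and 7.03% of all genes. Bcl2l11, which encodes the death-promoting protein Bim, was 8.17 ± 0.11 (n = 3) in osteoblasts, 9.61 ± 0.45 (n = 15) in primary tumours, 9.55 ± 0.50 (n = 4) in secondary tumours and 7.97 ± 0.39 (n = 4) in lines. Every primary and secondary tumour lay above every line and osteoblast culture. Over all genes, every primary tumour lay above every osteoblast culture in 8.95%, and every secondary tumour did in 24.1%. Every line lay below all primary tumours in 5.25% and below all secondary tumours in 19.8%. The difference was -1.64 between lines and primary tumours (SE 0.234; limma adjusted p = 1.1e-05) and 1.44 between primary tumours and osteoblasts (SE 0.263; limma adjusted p = 0.00011). The mean of its probe sets gave -0.91 for the first of these. Bcl2l11 was the 1 gene of the list called higher in primary tumours than in osteoblasts, and 3 were called lower, beside 6.58% and 11.9% of all genes. Cldn1, a tight junction protein, differed there by -3.43 (SE 0.460; limma adjusted p = 2.32e-06), and by -0.82 without the filter. Ccnd1, the cell cycle regulator cyclin D1, differed by -1.64 (limma adjusted p = 0.013), a call lost without osteoblast culture 3 (adjusted p = 0.0511) and against the primary tumours of array set B (adjusted p = 0.0539). Timp1, an inhibitor of matrix proteases, differed by -1.34 (limma adjusted p = 0.0232), a call lost without any 1 osteoblast culture (adjusted p = 0.07, 0.0784 and 0.0735), by quantile normalization (0.0583) and in the primary tumours of array set C (-0.99, 0.0638). Cldn1 was 1.83 higher in lines than in primary tumours (limma adjusted p = 0.0012), where primary tumours lay between the floor of 3.64 and 5.86; with a higher floor the difference was 0.81. Jag1, a ligand of Notch receptors, was 1.02 higher in lines (limma adjusted p = 0.0417), and this call was lost without line 179, 182 or 213 and without primary tumour 66, 94, 119, 179, 182, 330 or 331.

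Bone and cartilage genes described as RUNX targets held the most calls between lines and primary tumours. Of 16 measured of 20, 8 fell in lines and 0 rose, beside 7.03% of all genes called lower and 4.72% higher, and the median difference was -1.36 against -0.03 over all genes. Within array set C, 3 of the 16 were called, in a fit that called 523 of 12887 genes higher and 656 lower. Dmp1, a matrix protein of osteocytes, fell by 4.34 in lines (SE 1.00; limma adjusted p = 0.00162). Ibsp, bone sialoprotein, fell by 3.76 (limma adjusted p = 0.0075), a call lost without line 213 (-2.41, adjusted p = 0.0887). Fgfr3, a growth factor receptor of cartilage and bone, fell by 2.85 (SE 0.454; limma adjusted p = 4.07e-05), and Alpl, the alkaline phosphatase needed for mineralisation, fell by 2.69 (limma adjusted p = 0.0031). Within set C Ibsp differed by -3.58 and Alpl by -2.24, without a call (adjusted p = 0.099 and 0.105).

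Fgfr3 was above lines in both kinds of tumour tissue, as Runx3 was by the EST probe set, but its mean in lines lay below that of osteoblasts. It was 9.12 ± 0.98 (n = 15) in primary tumours, 9.48 ± 0.19 (n = 4) in secondary tumours, 7.03 ± 0.22 (n = 3) in osteoblasts and 6.27 ± 0.90 (n = 4) in lines. Sp7, the osteoblast transcription factor also called osterix, varied among the lines: it was 10.52 in line 176, 6.97 in 179, 8.42 in 182 and 6.21 in 213. Lines 176 and 182 were thus the highest and next highest for both Sp7 and Runx3. Sp7 was lower in lines, by -2.17 against primary tumours (limma adjusted p = 0.00392) and by -2.55 against secondary tumours (limma adjusted p = 0.00841). Within set C the first was -1.94 (adjusted p = 0.101), and with the array set as a term the second was -2.06 (adjusted p = 0.127).

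Proprioceptive neurons need Runx3, and 6 of 10 genes of these neurons were measured. Between lines and primary tumours 0 of the 6 were called, beside 11.7% of all genes, and 3 had an unadjusted limma p below 0.05. Against osteoblasts, Avil, the actin-binding protein advillin of sensory neurons, was higher in each tumour group, by 1.99 in primary tumours, 2.62 in lines and 2.26 in secondary tumours (limma adjusted p = 0.00581, 0.00915 and 0.0114). The call in secondary tumours was lost without tumour 94 (1.72, adjusted p = 0.0541). In the same list Ntrk2, a neurotrophin receptor, was called lower in lines than in osteoblasts (-1.38, SE 0.283; limma adjusted p = 0.00146), and by -3.19 with another of its probe sets, used under a stricter filter. These comparisons called 6.58%, 1.58% and 7.71% of genes higher, and that of lines called 6.64% lower.

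Over these 5 lists together, 68 of 89 genes were measured. Against osteoblasts, 10 were called higher and 7 lower in primary tumours (25%, beside 18.5% of all genes), 1 and 5 in lines (8.82%, beside 8.22%) and 11 and 7 in secondary tumours (26.5%, beside 18.5%). Between lines and primary tumours 3 were called higher and 12 lower (22.1%, beside 11.7%), and between lines and secondary tumours 2 higher and 13 lower (22.1%, beside 13.2%). Between secondary and primary tumours 0 were called by limma, beside 0.00776% of all genes, with 7 at an unadjusted p below 0.05. The comparisons of 1 group share that group's arrays, so their counts are not independent of each other. The lists were chosen with earlier results in view, and the counts describe them only.

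Runx3 is a gene of T and NK cells as well, so the markers of these cells were read on the same arrays. Of the T cell list 15 of 17 genes had a probe set and 6 passed the filter; 9 of the 15 in primary tumours and 10 in each other group lay below the median of all values, 52.6, on every array. Cd3e, a chain of the T cell receptor complex, reached 31.7 at most, Cd3g 39, Cd2 20.3 and Cd3d 57.1. Other members were brighter: Cd8a lay at 73.9 to 126 and Zap70 at 107 to 179 over all arrays, Cd5 reached 238 in a primary tumour, and Cd247 lay at 65.9 to 77.1 in secondary tumours against 36.3 to 63.5 in osteoblasts. Of the NK list 14 of 15 had a probe set and 2 passed the filter; 13 of the 14 in osteoblasts, 11 in primary tumours, 12 in lines and 12 in secondary tumours lay below that median on every array. Its brightest genes were Ccl5, up to 88.1, and Prf1, up to 83.8, while Gzmb reached 13.5. Summed intensities of the NK list were 240 to 281 in osteoblasts and 249 to 330 in lines, and the tissues overlapped them, with 225 to 421 (primary) and 284 to 403 (secondary). Those of the T cell list were highest at the median in osteoblasts, 2880 to 3010, beside 457 to 2230 in lines, 532 to 4990 (primary) and 608 to 662 (secondary). Most of the osteoblast sum was Thy1, at 2350 to 2430, a gene that mesenchymal cells also express.

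Macrophage markers did move with the tissue samples. All 14 were measured, and their sums were 779 to 826 in osteoblasts and 639 to 874 in lines, against 6020 to 32900 (primary) and 6360 to 20000 (secondary). Dendritic cell markers, of which 11 of 12 had a probe set, gave sums of 349 to 388 in osteoblasts and 397 to 474 in lines, against 787 to 3140 (primary) and 1480 to 8650 (secondary). Much of the tissue sums was Cd74 and H2-Aa, with medians of 456 and 470 (primary) and 1140 and 1320 (secondary). Of 7 list genes that passed the filter, these 2 and Batf3 were called higher than in osteoblasts in both tissues. The other 4 were not, beside 6.58% (primary) and 7.71% (secondary) of all genes called higher. Endothelial markers, all 11 measured, gave 899 to 1120 and 788 to 1010, against 1710 to 3480 (primary) and 1330 to 3600 (secondary). The sums of these lists were thus higher in both kinds of tissue sample than in lines and cultures, without overlap, but not every gene was. Of the 11 endothelial genes, 8 (primary) and 7 (secondary) were called higher than in osteoblasts and 0 lower, beside 6.58% and 7.71% of all genes called higher. Flt1 had medians of 84.6 (primary) and 78.1 (secondary) against 99.6 in osteoblasts. Runx3 by the EST probe set was also higher on average in both tissues than in lines and cultures. Line 176, at 518, lay within the range of the primary tumours, and the lines lay 4.63-fold above osteoblasts on average, a difference for which Runx3 was chosen. The part of these markers in the Runx3 differences was not tested.

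Adipocyte markers set the osteoblast cultures apart from every tumour group, as Runx3 by the EST probe set and Runx1 did. Of 8 genes 6 were measured, and their sums were 28400 to 29100 in osteoblasts, 436 to 1930 in primary tumours, 399 to 4560 in lines and 505 to 2980 in secondary tumours. All 6 were called lower in each of the 3 tumour groups, beside 11.9%, 6.64% and 10.8% of all genes. Adipoq, the fat cell hormone adiponectin, lay at 6830 to 7290 in osteoblasts and at 154 or below elsewhere. Muscle markers, all 12 measured, varied widely among primary tumours and lines: their sums were 496 to 523 in osteoblasts, 349 to 37400 in primary tumours, 471 to 15700 in lines and 297 to 422 in secondary tumours. The muscle regulators Myog and Myod1 reached 1810 and 826 in lines, against 45.7 and 41.2 at most in primary tumours. The part of these cell types in the Runx3 differences between groups was not tested. Within the primary tumours the muscle list was set against Runx3, as given below.

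**Figure D5:**
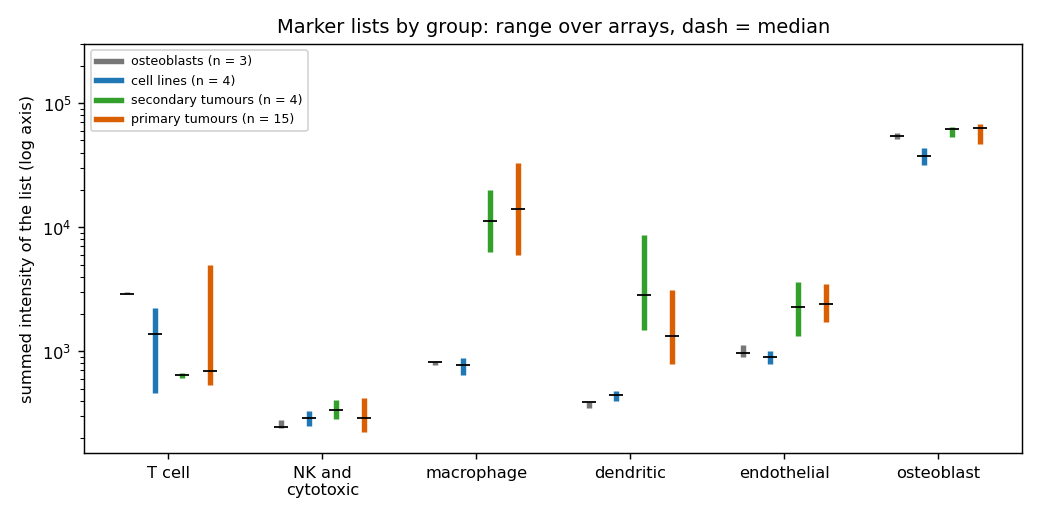
Summed intensity of 6 marker lists by group on a log axis: bars run from the lowest to the highest array and dashes mark the median. Macrophage, dendritic and endothelial sums are higher in primary and secondary tumours than in osteoblasts and lines, while the NK sums of all groups lie between 225 and 421.

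Over the 15 primary tumours, Runx3 by the EST probe set was set against 15 measures: 9 marker lists, Runx1, Cbfb, Myc, Sp7, the array median and the Gapdh 5′ to 3′ ratio. None passed after adjustment over the 15 relations, and the largest had an adjusted p of 0.214. That was the mean of the 6 T cell list genes that passed the filter, lower where Runx3 was higher (Pearson r = -0.63, permutation p = 0.0142). Spearman's rho was -0.52 (permutation p = 0.0516, adjusted 0.458). Without the 2 tumours farthest from the median r was -0.35. Within array sets it was -0.28 (n = 7) and -0.71 (n = 8). Cd3e is not among these 6 genes. Of them, Thy1 ran from 52.6 to 4380 and Cd5 from 19.3 to 238 in primary tumours. Cd8a ran only from 97.7 to 126 and Zap70 from 110 to 155. Muscle markers gave r = -0.06 over the 15 tumours (permutation p = 0.825, adjusted 0.924). Their r differed in sign between array sets, with -0.91 in set B (n = 7, permutation p = 0.00397) and 0.51 in set C (n = 8, permutation p = 0.194). These p-values within sets were not adjusted. Macrophage markers gave r = -0.03 (permutation p = 0.913, adjusted 0.924; rho = 0.02, permutation p = 0.944, adjusted 1.0) and -0.02 without the 2 farthest tumours, with -0.24 and 0.12 within array sets.

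The genes most like Runx3 over all 26 arrays, ranked by Pearson correlation of log2 intensity with the EST probe set, were Zfp598 (r = 0.91), Prdm2 (0.91), 1700096K18Rik (0.90), Tpcn1 (0.90), Pax3 (0.89), Epha6 (0.88), Plcl2 (0.88) and Sec14l2 (0.88). The median over 12886 other genes was -0.03. These points share the step between osteoblasts and tumours. Within the primary tumours the values of r ran from -0.67 (Pax3) to 0.69 (Prdm2) over the 7 of array set B and from 0.45 (1700096K18Rik) to 0.92 (Prdm2) over the 8 of set C; Pax3 had 0.87 and Zfp598 0.74 in set C, against -0.67 and -0.07 in set B. Within the 15 primary tumours the order was Slc2a3 (0.88), Trim24 (0.87), Nrip1 (0.84), Prdm2 (0.83), then Cep41, Ccdc73, Nfat5 and Srrm1 (0.80 each), and at the other end Dpagt1 (-0.84), Rufy1 (-0.82) and Tex264 (-0.82). Prdm2 was the 1 gene in both lists. With the RefSeq probe set, the 8 genes of the 26 arrays had r of 0.58 to 0.73, and the 8 of the primary tumours had r of 0.04 (Trim24) to 0.41 (Slc2a3). All of these correlations are descriptions over few samples.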

How the data were processed

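RNA from 26 mouse samples was copied into biotin-labelled cRNA and hybridised to 1-colour oligonucleotide arrays, per the labels' protocols. The authors deposited linear intensity values for 45101 probe sets; the sources used here do not give their software, background correction or scaling, and 1.35% of values were exactly 1. Probe sets were named from the platform annotation, updated through a RefSeq table of GRCm38.p6, so that 34945 had 1 gene symbol, 932 had several and 9160 were unnamed here. Genes without a name there, and the probes' positions, were not analysed here.

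Values below the 20th percentile were set to it (a floor of 12.5, or 3.64 on the log2 scale), and intensities were taken to log2 without further normalization. A named probe set was kept with at least 3 arrays above the median of 52.6 (22998 probe sets), and the probe set of highest mean stood for each of 12887 genes. Groups, tumour numbers and pairs came from the labels. Differences among tumour groups and for other genes were tested with limma 3.58.1 in R 4.3.3, with all 26 arrays in 1 model, and adjusted by Benjamini-Hochberg over all genes. Every adjusted p of a gene is limma's. A call needed an adjusted p below 0.05 and 2-fold. Pairs were tested by exact sign-flip permutation and correlations by 100000 permutations (Python 3.11.15, scipy 1.17.1). The fit was tested on simulated data. The number of arrays limits the precision.

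Secondary tumours 29, 64, 66 and 94 deviated with their same-numbered primary tumours (correlations of deviations over genes 0.45, 0.30, 0.22 and 0.64). The highest correlation with any other primary tumour was 0.13, 0.22, 0.15 and 0.22, so the margin was small for numbers 64 and 66. Same-numbered tumours were taken as pairs, and the pairing comes from the tumour numbers in the titles. Array sets were read from ratios of hybridisation controls. Text names every Runx3 probe set, Runx1 and Cbfb (the third RUNX gene was not analysed here), at most 4 called genes of a list per comparison by size, the 8 genes most like Runx3 (and 3 least like it over primary tumours), Myc, Sp7 and Cd3e. Runx3 and the lists were chosen with earlier results of these data known. Alternatives were another floor, an added constant, quantile and 75th percentile scaling, other filters, the mean of probe sets, each probe set, the array set as a term, weights, blocks, and leaving out each array.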

Additional observations from a re-analysis of the deposited data

Results flagged for a closer look

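Within groups of 4 samples, the highest and lowest value of Runx3, Runx1, Cbfb, Myc and Sp7 were compared with the rest by Dixon's ratio, over 12 groups of values with a critical ratio of 0.829; chance alone gives about 1 such sample in 20 groups. Runx1 in cell line 176 was 4.22 on the log2 scale, far below the next line at 8.58 (ratio 0.918). Myc in cell line 179 was 7.66, below the next line at 8.32 (ratio 0.892). Neither Runx3 probe set had such a sample in lines or secondary tumours.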

How the results depend on the processing

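By the EST probe set, the Runx3 differences from osteoblasts kept their direction under all alternatives, and leaving out 1 array gave 3.46 to 3.61 for primary tumours, 1.89 to 2.44 for lines and 3.14 to 3.34 for secondary tumours. With the mean of both probe sets they were 2.02, 1.33 and 1.84, with the RefSeq probe set alone 0.50, 0.46 and 0.46, and with 16 added before log2 in place of the floor that of secondary tumours was 2.92. By the EST probe set no tumour group overlapped with osteoblasts, and Runx3 was chosen for these differences. Their kept direction therefore describes that choice and is not evidence. The difference between lines and primary tumours, -1.65 to -1.11 with 1 array left out, was -0.69 with the mean of probe sets (limma adjusted p = 0.00212, under 2-fold) and -0.04 with the RefSeq probe set. Lines share only a number with primary tumours (correlations of 0.04, 0.08 and 0.04); over the 3 pairs, with the replicate block, the difference was -1.27 (adjusted p = 0.0516), and without the block -1.27 (adjusted p = 0.108, chosen after seeing the data). For secondary tumours, the block over pairs gave -0.41 (adjusted p = 0.384), and blocks changed no other Runx3 call than those given here.

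The difference between lines and secondary tumours was the least firm. It ran from -1.33 to -0.79 with 1 array left out, and was under 2-fold or not called with 16 added (-0.97), quantile normalization (-0.96), 75th percentile scaling (-0.86), the mean of probe sets (-0.51), the RefSeq probe set (-0.005), a random replicate block by tumour number (-0.99) and the array set as a term (-0.65), and not called with only the groups compared (-1.01, adjusted p = 0.0517). Scaling moved the share of higher calls in that comparison from 36.2% (615 higher, 1082 lower) to 51.7% (863 and 806) by quantiles and 52.8% (901 and 807) by the 75th percentile. The secondary pairs had a mean of 0.08 by the RefSeq probe set, and -0.55 to -0.35 with 1 pair left out. The genes called went from 1514 to 3042 over all probe sets and 648 with the block for lines against primary tumours, from 1697 to 3458 over all probe sets and 811 with the array set as a term for lines against secondary tumours, and from 1 to 2 or 3 for secondary against primary tumours.

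Over the 15 primary tumours, signs of r turned with the RefSeq probe set for osteoblast (-0.04), B cell (0.24), dendritic (-0.45), muscle (0.12) and cartilage lists (-0.21), Cbfb (-0.08), Myc (-0.17), Sp7 (-0.03), array median (-0.27) and Gapdh ratio (0.58). Without the 2 farthest tumours they turned for B cell (0.16), endothelial (0.07) and muscle lists (0.32) and Sp7 (-0.01). The dendritic r was -0.02 with a higher floor, -0.01 with 16 added, -0.08 by quantiles and -0.09 by the 75th percentile. Among other genes, Runx1 between lines and primary tumours ran from -0.35 to 1.23 with 1 array left out, at -0.27, -0.22 and -0.35 without lines 179, 182 and 213. Cbfb turned to -0.06 against osteoblasts in the primary tumours of array set C, to -0.0053 in lines without osteoblast culture 2 and to -0.04 without line 179. It turned to 0.08 between lines and primary tumours with array set as a term or within set C, to -0.04 between secondary and primary tumours over pairs with or without the block, and to 0.03 between lines and secondary tumours with array set as a term. Myc in secondary tumours against osteoblasts ran from -0.05 without number 64 to 0.28 with 1 array left out. For each of these the cause was not tested.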
